A study of Mus musculus with 18 samples.

Results

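The genes described here are 10 genes of glycolysis and lactate handling: Hk1, Hk2, Pfkp, Pfkl, Pfkfb3, Pgk1, Pkm, Ldha, Ldhb and Slc16a1. They were found by matching these symbols exactly to the gene names in 3 tables of 24015 rows each. All 10 had a row in each table and all 10 were tested in each. No measured value entered the rule, but the 10 genes were chosen with earlier results of these data known.

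RNA was sequenced from microdissected dentate gyrus, the hippocampal field whose principal cells are granule neurons, of 8-week-old C57BL/6 mice. The 18 libraries, each from its own animal, formed 6 groups of 3. In cFos_OE the transcription factor c-Fos was overexpressed, and EYFP_OE, with a yellow fluorescent protein, was its control. A control hairpin RNA was carried by shRNA-Ctrl_E0 and shRNA-Ctrl_E1, and a hairpin named for c-Fos by shRNA-cFos_E0 and shRNA-cFos_E1. The series concerns neuronal activation, and the deposited comparisons name the state before E1 as sham, here E0. Every group, the controls included, thus carried a construct. Not given in the sources used here are the vector, its promoter, the cells it reached, the stimulus and the interval between E0 and E1.

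The values are those of the authors' 3 deposited tables: cFos_OE against EYFP_OE, and E1 against E0 for each hairpin. Each gives a mean normalized count per gene, a log2 fold change that the fitting pulled toward 0, its standard error (shown after ±) and an adjusted p from DESeq2. No values per library were at hand, so the depth of the libraries is unknown and the spread over animals enters only through the standard errors. Group levels below are estimates computed from the mean count and the fold change with that pull removed, without an error. Fos itself had log2 fold changes of 3.36 ± 0.14 with shRNA-Ctrl, 2.33 ± 0.15 with shRNA-cFos and 3.34 ± 0.20 with overexpression in the authors' deposited tables. With that pull removed they were 3.58, 2.55 and 6.02, so the pull was strongest for overexpression. The last of these is the least precise, with a standard error of 0.37. It is also not the only value that the algebra allows: a solution farther from 0, with a larger standard error, was not taken. All 10 markers of dentate granule neurons were tested in each table. In bulk tissue, fewer cells of a type and less RNA per cell cannot be told apart.

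Glycolysis breaks glucose down to pyruvate in the cytosol. Hexokinases trap glucose by phosphorylating it, phosphofructokinase catalyses the main committed step, and phosphoglycerate kinase and pyruvate kinase yield ATP. Lactate dehydrogenase interconverts pyruvate and lactate, and monocarboxylate transporters carry lactate across membranes. In brain, astrocytes are known for high glycolytic flux, and lactate is exchanged between glia, vessels and neurons, where activity raises the demand for ATP.

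After activation with the control hairpin, Slc16a1 had the largest change of the 10 genes. This gene, which encodes the monocarboxylate transporter MCT1, was 2.57-fold higher at E1. Ldha, the dehydrogenase subunit that favours lactate formation, rose 1.36-fold, and Pfkfb3, whose product makes the strongest activator of phosphofructokinase, rose 1.36-fold, all from the authors' deposited table. The liver-type phosphofructokinase gene Pfkl fell 1.29-fold. Of the 10 genes, 5 rose and 1 fell. Of all 15675 tested genes 33.0% were called, 16.8% higher and 16.2% lower. Among the 9634 genes with a mean count at least that of Hk2, the lowest of the 10, these shares were 19.6% and 19.7%. The median log2 fold change of the 10 was 0.16, beside 0.01 over all genes tested.

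The promoters of the genes that changed in both hairpin arms are shown next, since these genes carry the result. They are the 250 bases before the annotated start, from RefSeq on GRCm38.p6, written 5′ to 3′ on the strand of the gene. Capitals mark matches on either strand to 5 motifs: ACGTG and GCGTG, the cores of the hypoxia response element, the E-box CACGTG, the AP-1 motif TGANTCA and the cyclic AMP response element TGACGTCA. Where 2 starts are annotated, the one with more matches is shown.
Slc16a1 (chr3:104638414-104638663, + strand): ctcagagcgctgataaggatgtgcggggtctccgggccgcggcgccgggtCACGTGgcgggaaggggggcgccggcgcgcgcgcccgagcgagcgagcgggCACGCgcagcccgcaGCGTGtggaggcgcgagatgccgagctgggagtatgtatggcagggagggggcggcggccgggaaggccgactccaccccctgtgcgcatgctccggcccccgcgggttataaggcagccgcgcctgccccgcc
Ldha (chr7:46845554-46845803, + strand): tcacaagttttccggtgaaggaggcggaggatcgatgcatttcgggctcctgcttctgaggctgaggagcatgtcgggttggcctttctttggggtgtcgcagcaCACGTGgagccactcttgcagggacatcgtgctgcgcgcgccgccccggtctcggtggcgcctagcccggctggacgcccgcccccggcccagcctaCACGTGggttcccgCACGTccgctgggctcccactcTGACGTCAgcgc
Pfkfb3 (chr2:11502091-11502340, − strand): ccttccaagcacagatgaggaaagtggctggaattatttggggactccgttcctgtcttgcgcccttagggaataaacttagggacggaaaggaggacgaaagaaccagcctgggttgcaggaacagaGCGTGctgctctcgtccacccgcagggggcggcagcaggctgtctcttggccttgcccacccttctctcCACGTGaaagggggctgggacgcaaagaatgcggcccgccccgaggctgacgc
Pfkl (chr10:78009808-78010057, − strand): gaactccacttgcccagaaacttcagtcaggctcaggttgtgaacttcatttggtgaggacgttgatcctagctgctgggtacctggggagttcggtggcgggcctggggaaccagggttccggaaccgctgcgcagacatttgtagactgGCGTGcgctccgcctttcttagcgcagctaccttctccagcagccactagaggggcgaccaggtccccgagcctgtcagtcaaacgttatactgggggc

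The Ldha promoter held 8 matches, the most of the 14 member promoters: 5 of ACGTG, 2 of the E-box, each of which contains ACGTG on both strands, and 1 cyclic AMP response element, whose first base lies 12 bases before the start. Slc16a1 held 5 matches, the shown Pfkfb3 promoter 4 and Pfkl 1. The E-box of Slc16a1 and that of Pfkfb3 are each also counted as ACGTG on both strands, so matches outnumber the marked stretches. Over all 10 genes, ACGTG was found in 7 of 14 promoters, against 16.6% of 32841 promoters of the same length, and GCGTG in 7 of 14, against 28.2%. The E-box was in 3 of 14, against 6.02%, and the cyclic AMP response element in 1 of 14, against 1.55%. AP-1 letters were in 0 of 14, against 6.75% of all promoters. The member promoters were richer in G and C, with a median of 62.8% beside 52.4% for all, and these motifs hold C and G. A match is a description of letters, and sites outside these windows were not searched.

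**Figure D1:**
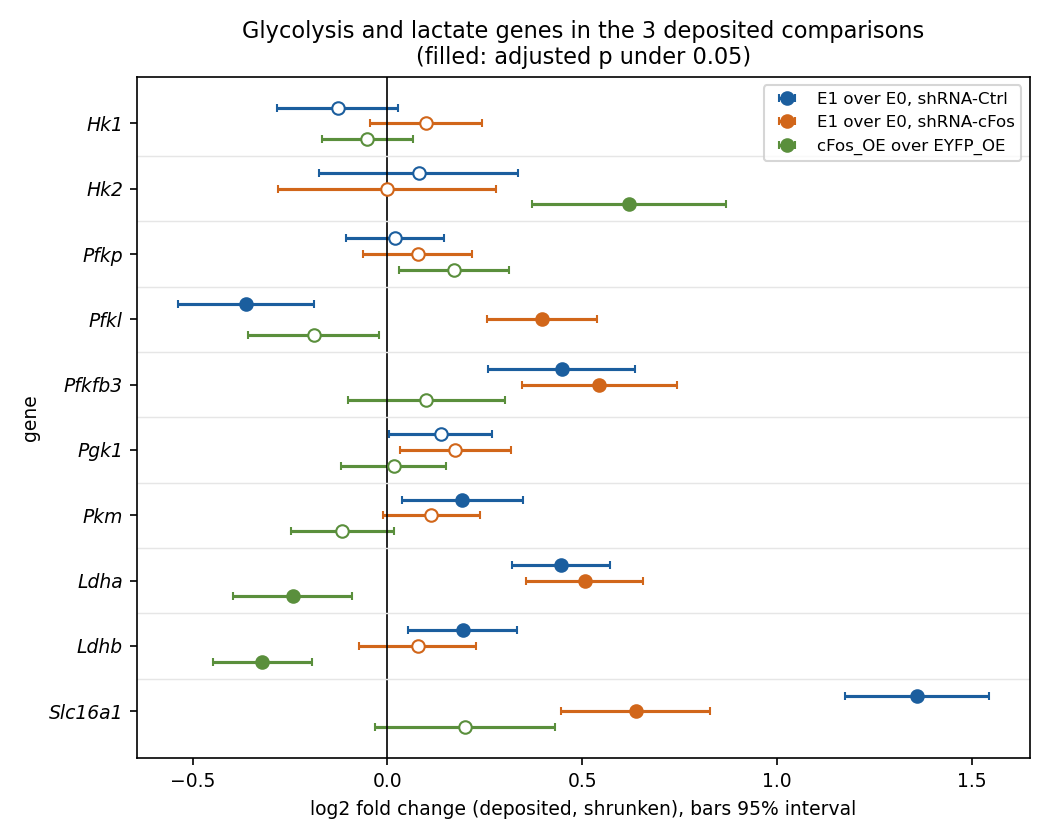
Log2 fold changes of the 10 genes (vertical axis) in the 3 deposited comparisons (horizontal axis, log2 scale, shrunken as deposited), with bars for the 95% interval from the authors' standard errors and filled points for an adjusted p under 0.05. Slc16a1 lies farthest to the right with shRNA-Ctrl at 1.36, Pfkl lies on opposite sides of 0 in the hairpin arms (-0.36 and 0.40), and Hk2 is to the right of 0 by more than its bar in overexpression alone of the 3.

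The entry step into glycolysis is served by the hexokinase genes Hk1, the main form in neurons, which binds mitochondria, and Hk2, an inducible form. Estimated Hk1 levels were 9873 at E0 and 9019 at E1 with shRNA-Ctrl, 7795 and 8356 with shRNA-cFos, and 7757 with EYFP and 7476 with c-Fos overexpression. In the authors' deposited tables its log2 fold changes of -0.13 ± 0.08, 0.10 ± 0.07 and -0.05 ± 0.06 did not pass. Hk2 stood far lower, at an estimated 233.6 and 247.6 with shRNA-Ctrl and 201.3 and 201.2 with shRNA-cFos. Its levels with overexpression were 178.4 with EYFP and 288.9 with c-Fos. So the groups of the hairpin arms lay close together and those of the overexpression pair apart.

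Hk2 was the only one of the 10 to rise with c-Fos overexpression, by 0.62 ± 0.13 on the log2 scale or 1.54-fold (adjusted p = 3.19e-05 from DESeq2 in the authors' deposited table). Of all genes tested there, 2.65% had a larger log2 fold change. With the pull toward 0 removed the value was 0.70. The E1 values of Hk2 were 0.08 ± 0.13 with shRNA-Ctrl and -0.001 ± 0.143 with shRNA-cFos, per the authors' deposited tables. Whether the overexpression value differs from these was not tested. Per kilobase of exon, Hk1 had 37.7 to 46.4 times the mean count of Hk2 over the 3 tables, so Hk2 was a small part of hexokinase RNA even where it rose.

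Phosphofructokinase is a tetramer of muscle, liver and platelet-type subunits. Pfkp, the platelet type, was at an estimated 4101 and 4159 with shRNA-Ctrl, 3442 and 3635 with shRNA-cFos, and 3293 with EYFP and 3720 with c-Fos. Its log2 fold changes of 0.02 ± 0.06, 0.08 ± 0.07 and 0.17 ± 0.07 in the authors' deposited tables did not pass (adjusted p = 0.85, 0.45 and 0.11 from DESeq2). Pfkl, the liver type, moved in opposite directions in the hairpin arms. It went from an estimated 6606 at E0 to 5103 at E1 with shRNA-Ctrl and from 3720 to 4923 with shRNA-cFos, and stood at 5455 with EYFP and 4752 with c-Fos. In the authors' deposited tables these are log2 fold changes of -0.36 ± 0.09 (adjusted p = 0.00031), 0.40 ± 0.07 (7.7e-07) and -0.19 ± 0.09 (0.15), from DESeq2. The first fell, the second rose and the third did not pass.

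Pfkfb3 rose in both hairpin arms by like amounts. Its estimated levels were 870 and 1196 with shRNA-Ctrl, 629 and 930 with shRNA-cFos, and 897 with EYFP and 966 with c-Fos. The log2 fold changes were 0.45 ± 0.10 (adjusted p = 3.1e-05), 0.54 ± 0.10 (1.9e-06) and 0.10 ± 0.10 (0.68), from DESeq2 in the authors' deposited tables. Only 4.87% of tested genes had a larger log2 fold change with shRNA-cFos, and 11.0% with shRNA-Ctrl.

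In the ATP-yielding steps the changes were small. Pgk1, phosphoglycerate kinase, went from an estimated 8588 to 9452 with shRNA-Ctrl and from 6815 to 7708 with shRNA-cFos, and was at 6867 with EYFP and 6945 with c-Fos. Its log2 fold changes of 0.14 ± 0.07, 0.17 ± 0.07 and 0.02 ± 0.07 in the authors' deposited tables did not pass (adjusted p = 0.11, 0.055 and 0.95 from DESeq2). The second passed once genes with a mean under 50 were left out (adjusted p = 0.0497, the DESeq2 p adjusted anew). Pkm, pyruvate kinase and by far the most abundant of the 10 per kilobase, was at 29410 and 33688 with shRNA-Ctrl, 23077 and 24978 with shRNA-cFos, and 22896 with EYFP and 21071 with c-Fos.

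With shRNA-Ctrl, Pkm rose by 0.19 ± 0.08 on the log2 scale in the authors' deposited table (adjusted p = 0.046 from DESeq2). This call is at the edge: without the authors' filter on low counts the adjusted p was 0.058, from the DESeq2 p adjusted anew. Centred on the median of all genes it was 0.056, by a normal approximation from the DESeq2 estimate and its standard error. The values of 0.11 ± 0.06 with the c-Fos hairpin and -0.12 ± 0.07 with overexpression in the authors' deposited tables did not pass. Pkm yields splice forms with different regulation, and these gene totals do not separate them.

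The lactate dehydrogenase subunit genes both rose with shRNA-Ctrl and both fell with overexpression, and with the c-Fos hairpin Ldha alone of the pair passed. Ldha rose from an estimated 3929 to 5367 with shRNA-Ctrl and from 2670 to 3821 with shRNA-cFos, and fell from 3688 with EYFP to 3094 with c-Fos. In the authors' deposited tables the log2 fold changes were 0.44 ± 0.06 (adjusted p = 1.1e-10), 0.51 ± 0.08 (1.9e-09) and -0.24 ± 0.08 (0.019), all from DESeq2. Ldhb, the subunit that favours lactate use, was at 5111 and 5854 with shRNA-Ctrl, 3857 and 4074 with shRNA-cFos, and 4233 with EYFP and 3368 with c-Fos. It rose slightly with shRNA-Ctrl, by 0.19 ± 0.07 (adjusted p = 0.024), gave 0.08 ± 0.08 (0.49) with shRNA-cFos, which did not pass, and fell with overexpression by 0.32 ± 0.06 (1.9e-05), from DESeq2 in the authors' deposited tables. The log2 fold change of Ldha exceeded that of Ldhb by 0.25 with shRNA-Ctrl, 0.43 with shRNA-cFos and 0.08 with overexpression, differences that carry no test. With overexpression, dentate granule neuron markers fell for 4 of 10 genes and rose for 1 (median -0.32), and endothelial and mural markers fell for 4 of 12 and rose for 0 (median -0.20). Oligodendrocyte markers fell for 1 of 10, with a median of -0.33 and a summed estimated level that went from 38207 to 26476. Astrocyte markers rose for 3 of 10 and fell for 1 there, and microglial markers rose for 6 of 10. Among all genes tested there, 7.10% were called higher and 5.86% lower. Of these lists 0 markers were at 0 counts, all from the authors' deposited table, and their part in the Ldha and Ldhb values was not tested. Per kilobase, Ldhb had 1.63 to 1.78 times the mean count of Ldha.

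Slc16a1 had the largest E1 change of the 10 in both hairpin arms. Its estimated level went from 727 at E0 to 1914 at E1 with shRNA-Ctrl and from 770 to 1217 with shRNA-cFos, while EYFP and c-Fos overexpression stood at 707 and 824. The log2 fold changes were 1.36 ± 0.09 (adjusted p = 7.3e-45) and 0.64 ± 0.10 (2.4e-09), and 0.20 ± 0.12 (0.33) with overexpression, from DESeq2 in the authors' deposited tables. With shRNA-Ctrl only 0.893% of tested genes had a larger log2 fold change, and with shRNA-cFos 3.26%. MCT1 is known from endothelium, glia and other cells. Endothelial and mural markers rose for 4 of 12 genes with shRNA-Ctrl (median 0.24), and with shRNA-cFos 1 rose and 2 fell (median -0.19), in the authors' deposited tables. Their summed estimated level went from 4414 to 5337 and from 3894 to 3519, and 0 of the 12 were at 0 counts. Among all genes tested, 16.8% were called higher and 16.2% lower with shRNA-Ctrl, and 16.3% and 11.7% with shRNA-cFos. Oligodendrocyte markers had 0 of 10 higher and 1 lower in either arm. The part of these cells in the Slc16a1 values was not tested.

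**Figure D2:**
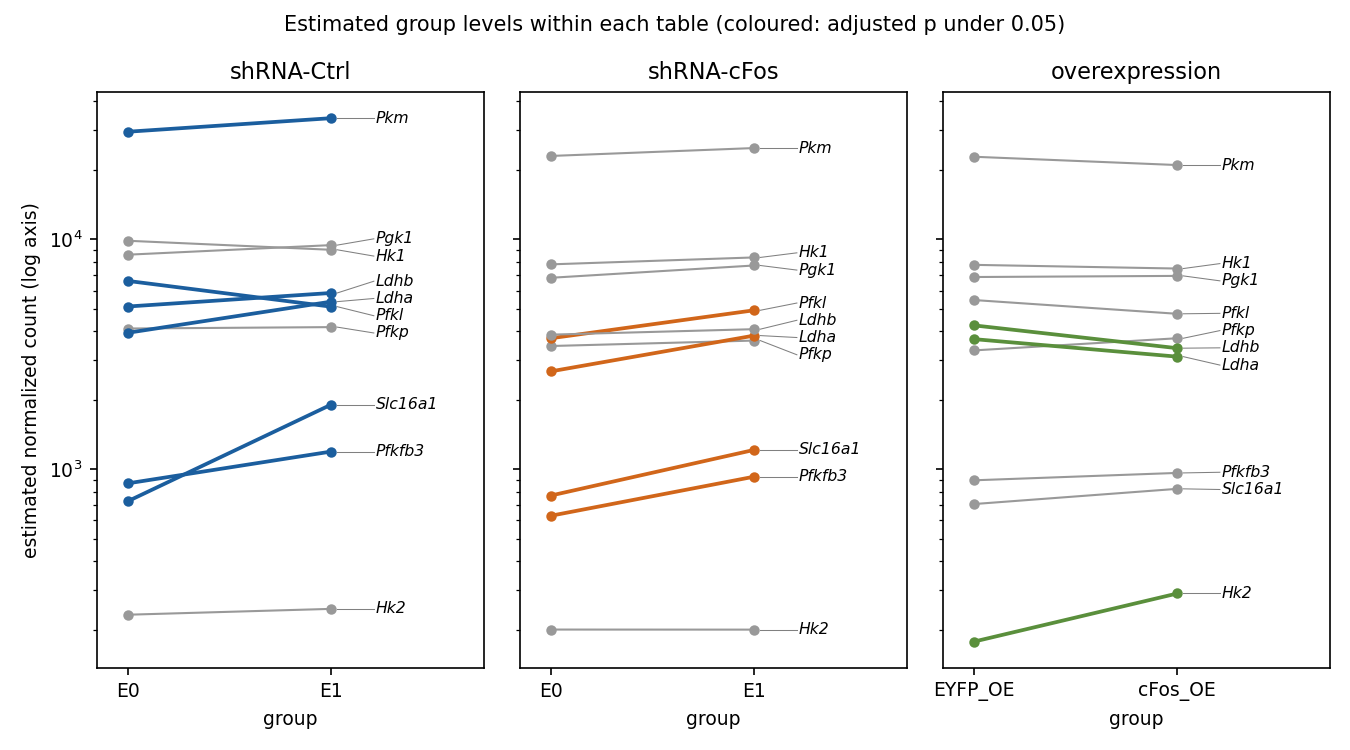
Estimated group levels of the 10 genes (vertical axis, normalized counts on a log axis) in the groups of each comparison (horizontal axis), computed from the mean count and the unshrunken fold change of each table. Lines join the groups of a comparison, and colour marks an adjusted p under 0.05. The tables were normalized separately, so lines compare within a panel only, where the line of Slc16a1 with shRNA-Ctrl is the steepest.

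With the hairpin named for c-Fos, then, 4 of the 10 rose at E1 (Pfkl, Pfkfb3, Ldha and Slc16a1) and 0 fell by the DESeq2 test. Over all 14388 genes tested 28.1% were called, 16.3% higher and 11.7% lower, and among the 9262 with at least the lowest member's mean count 23.4% and 11.8%. The median of the 10 was 0.14 beside -0.003 over all genes tested. With c-Fos overexpression 1 of the 10 rose (Hk2) and 2 fell (Ldha and Ldhb), against 13.0% called of 15827 tested genes, 7.10% higher and 5.86% lower, or 7.74% and 8.52% of the 9033 with at least the lowest member's mean. The median of the 10 was -0.02 beside -0.01 over all genes tested.

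The responses to activation were then compared between the hairpins by subtracting the log2 fold change with shRNA-Ctrl from that with shRNA-cFos. Of the 10 genes, 2 differed: Pfkl had a higher response with shRNA-cFos and Slc16a1 a lower one. Of the 14386 genes tested in both hairpin arms, 23.8% differed, 12.9% with a higher response and 11.0% with a lower one. The difference was 0.76 ± 0.11 for Pfkl (adjusted p = 3.7e-09) and -0.72 ± 0.14 for Slc16a1 (3.6e-06), by a normal approximation computed from the authors' deposited DESeq2 tables. Removing the pull toward 0 gave 0.78 and -0.74.

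The other 8 did not pass, and the widths of their intervals differ. For Ldha the difference was 0.06, with a 95% interval of -0.13 to 0.26, and for Pfkfb3 0.10 (-0.18 to 0.37). The interval of Hk2 was the widest, -0.46 to 0.30. Pfkp (-0.13 to 0.24), Pgk1 (-0.16 to 0.23), Pkm (-0.28 to 0.12) and Ldhb (-0.32 to 0.09) also included 0. For Hk1 the difference was 0.23, and its interval of 0.02 to 0.44 lay above 0 before adjustment over all genes (adjusted p = 0.11, normal approximation from the DESeq2 tables). All of these are computed from the authors' deposited tables.

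Levels can be set across the hairpin tables only after scaling, since each was normalized by itself. After the scaling, by the median E0 ratio of 12406 genes (-0.43 on the log2 scale), Pfkl with shRNA-cFos relative to shRNA-Ctrl stood at -0.40 at E0 and 0.38 at E1. For Slc16a1 the same ratios were 0.51 at E0 and -0.22 at E1, so the larger part of its smaller response lay at E0. Without scaling they were -0.83 and -0.05 for Pfkl and 0.08 and -0.65 for Slc16a1, which would put the larger part for Slc16a1 at E1. These unscaled values still hold the offset of -0.43 between the separately normalized tables. These ratios, from the authors' deposited tables, have no error or test, and where the Slc16a1 difference lies depends on the scaling.

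Dentate granule neuron markers moved with Pfkl: 7 of 10 fell and 1 rose with shRNA-Ctrl (median -0.55), while for the c-Fos hairpin 6 rose and 0 fell (median 0.26), in the authors' deposited tables. Their summed estimated level went from 28686 to 21949 and from 12937 to 17206. Microglial markers went the other way, with 9 of 10 higher with shRNA-Ctrl and 6 lower and 1 higher with shRNA-cFos (medians 0.42 and -0.44). Of both lists, 0 markers were at 0 counts. Shares of all genes called higher and lower were 16.8% and 16.2% with shRNA-Ctrl and 16.3% and 11.7% with shRNA-cFos. Astrocyte markers rose for 2 of 10 genes with shRNA-Ctrl, and for 6 with 2 lower with shRNA-cFos. The part of such shifts in the Pfkl values was not tested.

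**Figure D3:**
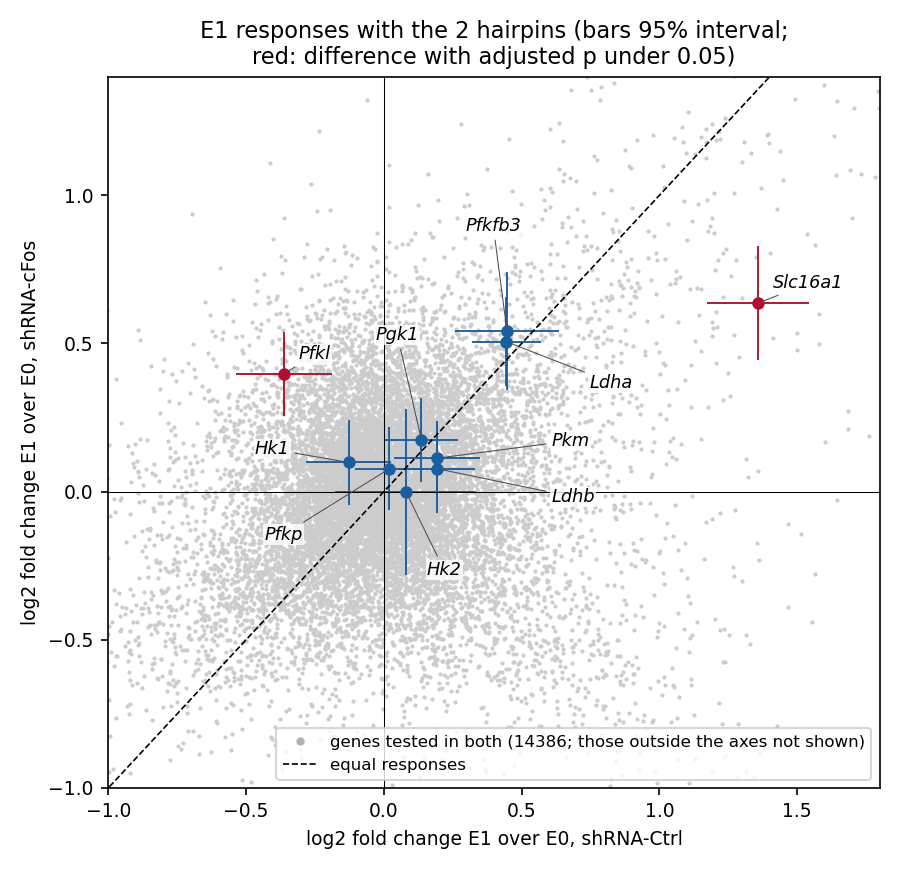
E1 responses with shRNA-Ctrl (horizontal axis, log2 fold change) against shRNA-cFos (vertical axis, log2 fold change), with grey points for genes tested in both tables, bars for the 95% interval of the 10 named genes and a dashed line for equal responses. Red marks the genes whose responses differed at an adjusted p under 0.05, Pfkl above the line and Slc16a1 below it, while Ldha and Pfkfb3 lie next to the line.

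Upstream of hexokinase, the glucose transporter genes of the barrier and of neurons rose in both hairpin arms. Slc2a1, which encodes GLUT1 of endothelium and astrocytes, rose by 0.77 ± 0.12 with shRNA-Ctrl and 1.12 ± 0.12 with shRNA-cFos, and by 0.24 ± 0.08 with overexpression, in the authors' deposited tables. Slc2a3, which encodes the neuronal GLUT3, rose by 0.74 ± 0.07 and 0.53 ± 0.08 and did not pass with overexpression (0.12 ± 0.07), in the authors' deposited tables. Of the 8 transporter genes, 3 rose and 2 fell with shRNA-Ctrl, for the c-Fos hairpin 3 of 7 tested rose and 0 fell, and 1 of 8 rose with overexpression. The third to rise was Slc2a4, which encodes the insulin-responsive GLUT4 (1.19 ± 0.22 at a mean of 52.3 counts), with shRNA-Ctrl, and Slc2a13, a proton-coupled inositol transporter gene (0.55 ± 0.11), for the c-Fos hairpin, in the authors' deposited tables. Those that fell were Slc2a6 (-0.30) and Slc2a8 (-0.27), both with shRNA-Ctrl in the authors' deposited table. Among all genes tested, 16.8% were called higher and 16.2% lower with shRNA-Ctrl, 16.3% and 11.7% with shRNA-cFos, and 7.10% and 5.86% with overexpression.

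Of the glycolytic enzymes outside the 10, 3 of 18 tested rose and 1 fell with shRNA-Ctrl, where 16.8% of all genes were called higher and 16.2% lower. Neuronal enolase Eno2 (0.33 ± 0.07), triosephosphate isomerase Tpi1 (0.24 ± 0.08) and the ADP-dependent sugar kinase Adpgk (0.51 ± 0.11) rose, and the muscle phosphoglycerate mutase Pgam2 (-0.44 ± 0.17) fell, in the authors' deposited table. With shRNA-cFos 4 of 18 rose and 1 fell. These were glucose phosphate isomerase Gpi1 (0.65 ± 0.09), aldolase Aldoa (0.66 ± 0.09), Gapdh (0.34 ± 0.07) and muscle phosphofructokinase Pfkm (0.16 ± 0.06), and, lower, Hk3 (-0.88 ± 0.22), the hexokinase of myeloid cells, in the authors' deposited table. Gpi1 and Aldoa also had a higher E1 response with shRNA-cFos, by 0.54 ± 0.13 and 0.45 ± 0.13, and Hk3 and Adpgk a lower one, by -1.38 ± 0.32 and -0.50 ± 0.17, computed from the authors' deposited tables. With overexpression 4 of 18 rose, among them Hk3 (0.61 ± 0.20), Adpgk (0.45 ± 0.12) and Pgam1 (0.17 ± 0.06), and 0 fell, in the authors' deposited table. Of the 10 microglial markers, 6 rose and 0 fell in that comparison as well (median 0.49), and their summed estimated level went from 8224 to 11426. Their part in the Hk3 and Hk2 values was not tested. List medians were 0.10, 0.03 and 0.07, beside all-gene medians between -0.01 and 0.01. Shares of all genes called higher and lower were 16.3% and 11.7% with shRNA-cFos and 7.10% and 5.86% with overexpression.

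Other enzymes that set the fructose bisphosphates gave 1 higher and 1 lower of 4 tested with shRNA-Ctrl and 0 higher and 1 lower of 3 with the c-Fos hairpin. With shRNA-Ctrl Pfkfb4 rose (0.36 ± 0.11) and Tigar, listed under its older name 9630033F20Rik, fell (-0.26 ± 0.09), and Tigar fell with shRNA-cFos too (-0.39 ± 0.11), in the authors' deposited tables. Of the 4 genes tested with overexpression, 0 passed. Other lactate and monocarboxylate genes gave 1 higher and 1 lower of 7 tested with shRNA-Ctrl and 0 of 6 and 0 of 7 in the other comparisons. The one higher was Bsg (0.18 ± 0.07), which encodes basigin, the chaperone that brings MCT1 to the membrane, and the one lower Hcar1 (-1.15 ± 0.28 at a mean of 18.6 counts), a lactate receptor gene, in the authors' deposited table. Thus the 2.57-fold change of Slc16a1 stood beside a basigin change of 0.18 on the log2 scale. Called shares over all genes, higher and lower, were 16.8% and 16.2% (shRNA-Ctrl), 16.3% and 11.7% (shRNA-cFos) and 7.10% and 5.86% (overexpression).

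Pyruvate entry into mitochondria is governed by pyruvate dehydrogenase, its inhibitory kinases and its activating phosphatases. With shRNA-Ctrl 2 of 14 genes rose and 4 fell, among the latter the phosphatases Pdp1 (-0.29 ± 0.09) and Pdp2 (-0.61 ± 0.14), in the authors' deposited table. Those that rose there were the kinase Pdk3 (0.30 ± 0.10) and Pcx (0.21 ± 0.08). With shRNA-cFos 3 rose and 1 fell: the kinase Pdk3 (1.01 ± 0.12), Pdp1 (0.39 ± 0.09) and the subunit Pdha1 (0.32 ± 0.09), and, lower, Pdp2 (-0.48 ± 0.18), in the authors' deposited table. The E1 response was higher with shRNA-cFos for 6 of the 14 and lower for 0, against 12.9% and 11.0% of all genes. Neuronal markers moved with it: the response was higher with the c-Fos hairpin for 9 of 10 dentate granule neuron markers (median difference 0.79) and 6 of 8 pan-neuronal markers (0.51), and lower for 0 of either. Their part in the result was not tested. With overexpression the kinase Pdk1 rose (0.45 ± 0.08) and the pyruvate carrier subunit Mpc2 fell (-0.34 ± 0.10), in the authors' deposited table. Within shRNA-Ctrl, shRNA-cFos and overexpression, 16.8%, 16.3% and 7.10% of all genes were called higher and 16.2%, 11.7% and 5.86% lower.

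Among 19 tested genes of glycogen metabolism, 4 rose and 3 fell with shRNA-Ctrl, and for the c-Fos hairpin 5 rose and 3 fell. In that list 0 rose and 3 fell with overexpression. Over all genes tested, 16.8%, 16.3% and 7.10% were called higher and 16.2%, 11.7% and 5.86% lower, in the same order. Ppp1r3c, whose product targets a phosphatase to glycogen and promotes its synthesis, rose by 0.54 ± 0.12 and 0.67 ± 0.11 in the hairpin arms and fell with overexpression (-0.23 ± 0.09), in the authors' deposited tables. Pgm2l1, a phosphoglucomutase-like gene abundant in brain, fell with shRNA-Ctrl (-0.35 ± 0.11), rose with shRNA-cFos (0.34 ± 0.08) and fell with overexpression (-0.33 ± 0.07), in the authors' deposited tables. Its signs are those of Pfkl in all 3 comparisons, although Pfkl did not pass in the last. Of 8 pentose phosphate enzymes, 1 rose and 2 fell with shRNA-Ctrl, for the c-Fos hairpin 1 rose and 1 fell, and 1 rose with overexpression. G6pdx, which opens that pathway, rose by 0.29 ± 0.08 with shRNA-Ctrl and 0.34 ± 0.10 with overexpression in the authors' deposited tables. With shRNA-cFos it did not pass (-0.01 ± 0.11). H6pd fell with shRNA-Ctrl (-0.68 ± 0.14) and with shRNA-cFos (-0.60 ± 0.18) there. Rpia fell with shRNA-Ctrl (-0.40 ± 0.14), and Tkt rose with shRNA-cFos (0.37 ± 0.08).

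Hypoxia-inducible factors drive many glycolytic genes, so the factors and their targets outside glycolysis were counted too. The factor gene Hif1a did not pass in any comparison (0.13 ± 0.08, -0.06 ± 0.08 and -0.01 ± 0.08 in the authors' deposited tables). Of the list, 7 of 22 rose and 3 fell with shRNA-Ctrl, for the c-Fos hairpin 8 of 21 rose and 2 fell, and 3 of 22 rose and 3 fell with overexpression. Beside them, the shares of all genes called higher and lower were 16.8% and 16.2%, 16.3% and 11.7%, and 7.10% and 5.86%. The prolyl hydroxylase of collagen, P4ha1, rose by 1.20 ± 0.09 and 0.87 ± 0.10 in the hairpin arms, and the vessel growth factor gene Vegfa by 0.86 ± 0.09 and 0.70 ± 0.11, in the authors' deposited tables. With overexpression P4ha1 fell (-0.23 ± 0.08) and Vegfa did not pass (-0.16 ± 0.12) there. P4ha2 rose with shRNA-Ctrl (1.02 ± 0.17) and fell with shRNA-cFos (-0.45 ± 0.18). Vhl (-0.45 ± 0.07) and Bnip3 (-0.25 ± 0.09) fell with shRNA-Ctrl, and Ero1l (-0.26 ± 0.10) fell with shRNA-cFos. Egln1, the oxygen sensor that marks the factors for decay, fell by 0.65 ± 0.08 with shRNA-Ctrl in the authors' deposited table. The related hydroxylase genes Egln3 (0.64 ± 0.16) and Egln2 (0.24 ± 0.08) rose there, per the authors' deposited table. Hif3a rose by 1.69 ± 0.22 with shRNA-cFos and 0.92 ± 0.18 with overexpression in the authors' deposited tables. The medians of the list were 0.13, 0.19 and -0.08, beside 0.01, -0.003 and -0.01 over all genes tested.

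**Figure D4:**
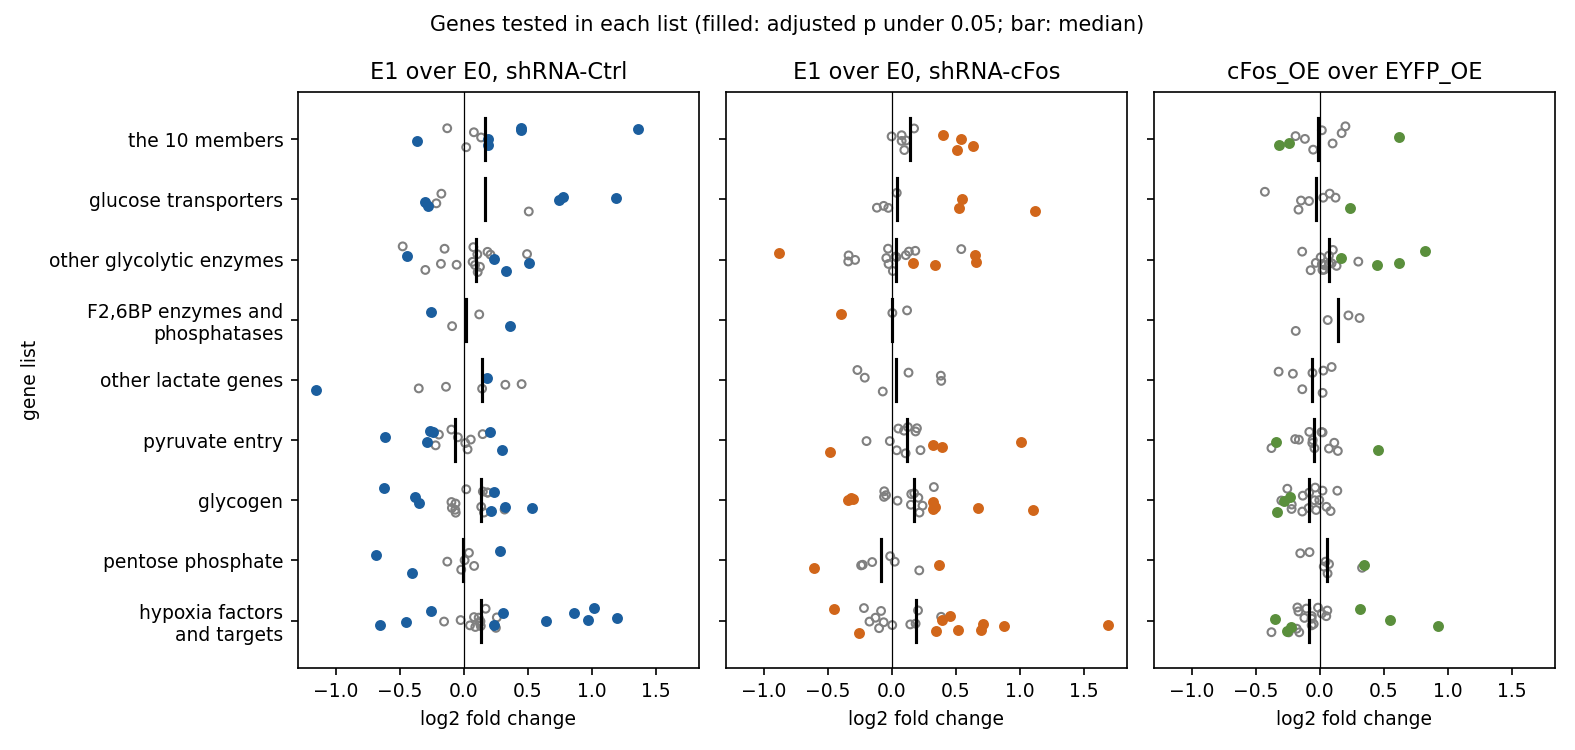
Log2 fold changes (horizontal axis) of the tested genes of each pathway list (vertical axis) in the 3 deposited comparisons, with filled points for an adjusted p under 0.05 and a black bar at the list median. The filled points of the 10 genes lie mostly right of 0 in the hairpin arms (5 of 6 and 4 of 4), and with overexpression 1 lies right and 2 left of 0.

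Reads shared between genes limit some of these values. The strand setting is not given in the sources used here, and in GENCODE M21 Hk1, Hk2 and Pfkp overlap genes of the opposite strand (Hk1os, Gm17034 and Pitrm1), as does Pfkfb3 (Gm10851). Pfkfb3, Pkm and Slc16a1 also overlap predicted genes of their own strand. Ldha and Pgk1 have 2 and 3 related copies named for them there, so reads of these genes may have been split. The deposited tables give an example among the enolases: Eno1 had a mean of 15.5 normalized counts in the shRNA-Ctrl table and its near-identical copy Eno1b 4077, a pair looked at after its values were seen. Eno1b is outside the enzyme list, whose counts use Eno1, and it rose with the c-Fos hairpin (0.24 ± 0.08, adjusted p = 0.011) and with overexpression (0.24 ± 0.07, 0.0084), by DESeq2 in the authors' deposited tables. With shRNA-Ctrl it did not pass (0.15 ± 0.09, 0.19).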

How the data were processed

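The titles put the RNA-seq libraries of dentate gyrus into 6 groups of 3, and each library came from 1 mouse per the labels' protocols. Per the submitters' processing notes, TopHat2, DESeq2 and the build mm9 were used, without versions. Not given in the sources used here are the counting tool, annotation and strand setting. Per the file headers, the authors deposited for each gene a mean of counts divided by size factors, a signal value, with a log2 fold change, that estimate's standard error, a Wald score, a p-value and an adjusted p-value. The tables hold 0 columns per library, so no library could be tested, plotted or left out, and precision is that of the authors' standard errors (median 0.11, 0.12 and 0.12 over tested genes of shRNA-Ctrl, shRNA-cFos and overexpression).

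The sign of the hairpin tables follows the name of the comparison, and that of overexpression follows Fos. Of the overexpression rows, 27 whose names had become dates were left out. The call was an adjusted p under 0.05, as the authors adjusted it over all genes. From the largest standard errors (0.29, 0.26 and 0.20) a normal prior around 0 was inferred, with standard deviations of 0.59, 0.53 and 0.41. It was removed algebraically, taking the solution with the smaller standard error, for group levels, which assume 3 libraries a group, and as an alternative. The difference of responses used a 2-sided normal p from the summed squared standard errors, with Benjamini-Hochberg adjustment over 14386 genes, and the step was tested on simulated data. Exon lengths per gene came from GENCODE M21 and promoters from RefSeq, both on GRCm38, a later build than mm9, and were used by gene name only.

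The 10 genes, the 8 pathway lists and the 8 lists of cell type markers were chosen with earlier results of these data known. All 10 genes were named, with Fos, Slc2a1, Slc2a3, Hif1a and Vegfa. Of each pathway list up to 5 further genes per comparison with the smallest adjusted p were named, except 1 that is not reported here, and of cell types mostly counts are given. Alternatives were the removed prior, an adjusted p of 0.01, a minimum fold of 1.5, no filter on low counts, a minimum mean of 50, and centring on the median gene. A planned comparison of protein sequences was not run. The computations used Python 3.11.15, numpy 2.4.6, pandas 2.3.3 and scipy 1.17.1.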

Additional observations from a re-analysis of the deposited data

Results flagged for a closer look

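The E1 response differed between the hairpins for 24 of the 62 named genes tested in both tables, of which 17 responded more and 7 less in the shRNA-cFos arm (signed log2 values). Each value here is a log2 difference, shRNA-cFos minus shRNA-Ctrl, computed from the authors' deposited DESeq2 tables, with an adjusted p under 0.05 by a normal approximation. Many of these genes were named because they differed, so the count describes the choice. Among the 10 glycolysis and lactate genes they were Pfkl (0.76), which fell in one arm and rose in the other, and Slc16a1 (-0.72), which rose in both. Fos itself stood at -1.03.

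Of the enzymes and transporters around them, higher responses were found for Slc2a13 (0.76), Gpi1 (0.54), Aldoa (0.45) and the pentose phosphate enzyme gene Tkt (0.33), and lower ones for Hk3 (-1.38) and Adpgk (-0.50). All named genes of pyruvate entry that differed had higher responses: the kinases Pdk1 (0.44), Pdk2 (0.39) and Pdk3 (0.70), the phosphatase Pdp1 (0.68), Pdha1 (0.42) and Mpc2 (0.37). In glycogen metabolism Pgm2l1 (0.69), Ppp1r3e (0.57) and Ppp1r3g (1.08) had higher responses and the glycogen synthase gene Gys1 (-0.45) a lower one. Among hypoxia factors and targets Hif3a (1.52), Egln1 (0.55) and Epas1 (0.40) were higher, and P4ha2 (-1.47) and Egln3 (-0.86) lower.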

How the results depend on the processing

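Of 240 values for the 10 genes, over 4 comparisons and 6 alternatives, 223 kept their direction and their side of the threshold, 15 kept the direction and lost the call, 1 gained it and 1 changed sign. Many of these outcomes were fixed in advance, so the count does not measure stability. The stricter adjusted p and the minimum fold can only remove calls, and within a table only centring can change a sign. The sign change was Hk2 with shRNA-cFos, 0.0022 after centring on the median gene, a value near 0 either way. Removing the prior changes no call within a table, because it leaves the Wald score as it was.

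A minimum fold of 1.5 left 1 of the 10 genes called in each of the 3 deposited comparisons, Slc16a1 in both hairpin arms and Hk2 with overexpression. Over all genes it left 1660 calls of 5173 with shRNA-Ctrl (61.4% of them higher, against 51.0%), 1077 of 4039 with shRNA-cFos (53.9% against 58.2%), 615 of 2052 with overexpression (76.7% against 54.8%) and 1708 of 3426 for the difference (43.6% against 54.0%). At an adjusted p of 0.01 the counts were 2622 with shRNA-cFos, 1366 with overexpression and 2202 for the difference. At that threshold Pkm and Ldhb with shRNA-Ctrl and Ldha with overexpression were no longer called.

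No paired analysis was possible because the tables hold no values per library, and for the same reason no replicate was left out. Libraries of unknown depth limit low genes such as Hk2, whose interval was the widest of the 10.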
